A study of Mus musculus with 17 samples.

Results

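Mouse embryonic stem cells of line R1 were moved from the medium L2i into either LIM or LFAI, and the libraries of both media taken on the same day were compared. The comparison used 6 of the 17 libraries of the series, 1 in LIM and 1 in LFAI on each of days 2, 3 and 4 after L2i, chosen by medium and day. The pair from day 1 is given apart, and the L2i library of day 0 served only as a reference level. LIF was present in all media, on serum-free N2B27. L2i held CHIR99021 (3 uM) and PD325901 (0.1 uM). LIM held PD325901 (0.1 uM) and IWP2 (2 uM). LFAI held IWP2 at the same 2 uM, 20 ng/ml of human Activin A and 12 ng/ml of FGF2, and no PD325901. Plates for the course were coated with gelatin and fetal calf serum, and its cells were at passage 32, with 4 passages in 2i before days 1, 2 and 3 and 3 passages before day 4, in both media alike. The question this comparison answers is how the media differ when time since L2i is equal. A second set with no library in common, made from R1 and CGR8 cells (1 library of each line a group) on gelatin and Cultrex basement membrane extract, is used at the end. Its LIM cells had spent 4 (R1) and 6 (CGR8) passages in LIM.

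PD325901 inhibits MEK, the kinase that activates ERK. CHIR99021 inhibits GSK3 and so stabilises beta-catenin, and IWP2 blocks Porcupine, which Wnt ligands need for secretion. LIF acts through STAT3 and sustains the naive state of embryonic stem cells, which resembles the epiblast before implantation. FGF2, through MEK and ERK, and Activin A, through SMAD2 and SMAD3, are the signals that carry cells toward the primed state of the epiblast after implantation. LIM and LFAI both lack CHIR99021 and both contain LIF and IWP2, so they differ in MEK inhibition against FGF2 with Activin A. Which of these components lies behind any single difference cannot be told apart.

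The course had no replicate cultures on any day. Each medium was sampled once a day, and days 2, 3 and 4 stood in for repeats. The p-value of the test over days thus measures how steady a difference was in these 2 courses, not how it would vary between replicate cultures. The labels give fewer passages in 2i for day 4 than for day 3, so whether 1 culture was followed over days cannot be told. The test of a slope, a difference that moves with day, left 1 residual degree of freedom a gene beside 22.2 prior ones. Its p-values thus rest mostly on spread shared across genes. The 6 libraries held 13099328 to 13584647 gene counts, and those of day 1 held 12889029 (LIM) and 13667302 (LFAI). Levels are CPM, counts scaled to an equal library total by TMM, and a daily difference is LFAI minus LIM in log2 CPM with a prior count of 2, so that differences of low genes are understated. A gene was called when its adjusted p in edgeR's quasi-likelihood test, paired by day, was under 0.05, and errors after ± are standard errors derived from that test. All values come from bulk RNA, in which fewer cells of a type and less RNA per cell cannot be told apart.

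The library labelled LFAI day 1 stood apart from the later LFAI libraries. Over 10878 genes with 5 CPM or more on average, its log2 CPM correlated with LIM on day 1 at Pearson r = 0.994 across genes of these libraries, with 17 genes 2-fold apart. Against LFAI on day 2 the correlation was 0.903, with 1253 genes 2-fold apart. Dusp6, whose phosphatase product dampens ERK and which MEK/ERK signalling induces, was at 9.25 CPM in the library labelled LFAI day 1 and at 9.89 CPM in LIM on day 1. In the second set, scaled separately, Dusp6 was already at 51.7 (R1) and 58.1 (CGR8) CPM after 35 h of LFAI. No result below rests on day 1 unless the day is named. The counts of the 2 day 1 libraries were not identical. The median chi-square per gene between them was 1.37, against 1.22 between LIM on days 3 and 4. The cause of the likeness was not tested.

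**Figure D1:**
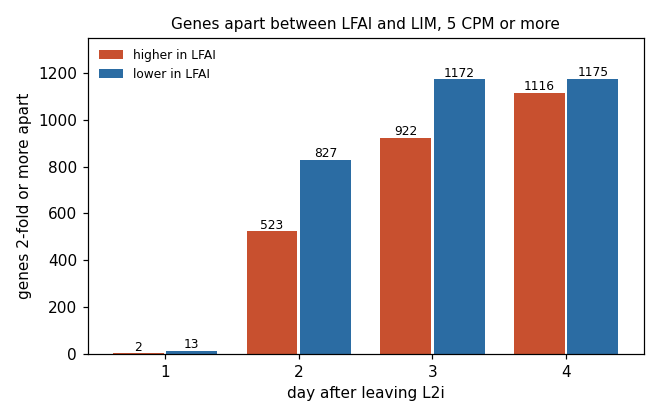
Number of genes at least 2-fold apart between LFAI and LIM on each day (bars, 1 library a medium and day), among genes with 5 CPM or more in the higher library. On day 1 the counts were 2 higher and 13 lower in the library labelled LFAI, and by day 4 they were 1116 higher and 1175 lower.

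The number of genes apart rose from day 2 to day 3 and changed little by day 4. When the media separated cannot be read from day 1, given the doubt about the library labelled LFAI. Among genes with 5 CPM or more in the higher library, 15 were 2-fold apart on day 1, 523 higher and 827 lower in LFAI on day 2, 2094 in both directions on day 3 and 2291 on day 4, as the bars by day show. Of all tested genes, 7.36% were 2-fold higher and 9.45% lower in LFAI on day 2, 11.6% and 11.2% on day 3, and 12.1% and 11.9% on day 4. Spearman's rho between the media across genes was 0.995, 0.954, 0.928 and 0.920 on these days, as a description. Over days 2 to 4, 4226 of 14471 tested genes were called (29.2%), 1991 of them higher (13.8%) and 2235 lower (15.4%) in LFAI. All 4226 had the same sign on each of the 3 days. The test paired by day favours such genes, so this is no separate evidence of steadiness. Of the called genes, 676 were at least 2-fold higher (4.67% of those tested) and 777 at least 2-fold lower (5.37%) in LFAI on all 3 days. These 1453 genes are called steadily apart below. Their median daily differences were 1.75, 2.41 and 2.37 for the higher genes and -1.90, -2.50 and -2.35 for the lower genes on days 2, 3 and 4. The median over all tested genes lay between -0.005 and 0.019 on these days. The counts rest on which days enter. Without day 3, 235 genes were called higher and 314 lower, without day 4 978 and 1368, and without day 2 3455 and 3438.

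MEK/ERK targets were higher in LFAI from day 2 on, by a median that changed little over the days. Of 21 genes in the list of ERK targets and feedback inhibitors, 19 were tested, 12 were called higher in LFAI (13.8% of all tested genes were) and none lower. The medians of the tested members were 1.58, 1.5 and 1.63 on days 2, 3 and 4, against -0.04 on day 1. Dusp6 and Spry2, both feedback inhibitors, had the smallest p of the list. Dusp6 (chromosome 10, 99263231 to 99267489 in GRCm38, plus strand) was at 11.7, 11.4 and 14.7 CPM in LIM and at 78.1, 111 and 103 CPM in LFAI on days 2, 3 and 4. The ranges did not overlap, and the fitted log2 difference was 2.94 ± 0.15 (SE, adjusted p = 0.000886). Spry2, a Sprouty inhibitor of receptor signalling upstream of ERK, was at 14.2, 16.4 and 14.7 CPM in LIM and at 90.1, 73.3 and 76.4 CPM in LFAI (2.40 ± 0.14, adjusted p = 0.001). Spry4, of the same family, was highest on day 2 in LFAI, at 85.6, 49.7 and 29.2 CPM, against 3.65, 4.26 and 4.61 CPM in LIM (3.58 ± 0.36, adjusted p = 0.00313).

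Other ERK targets included regulators that differed as much and regulators that were not called. Myc, a growth-promoting transcription factor, was at 2.24, 2.66 and 3.63 CPM in LIM and at 70.0, 53 and 44.8 CPM in LFAI (4.28 ± 0.28, adjusted p = 0.00123). The ERK phosphatase gene Dusp4 was at 2.46, 3.42 and 4.91 CPM in LIM and at 63.6, 85.9 and 40.4 CPM in LFAI. Etv4, an ETS-family transcription factor gene, showed a smaller gap, 44.9, 34.9 and 35.3 CPM in LIM against 134, 99.0 and 75.0 CPM in LFAI (1.39 ± 0.13, adjusted p = 0.00247). Il17rd and Spred1, both inhibitors of FGF or RAS signalling, were higher by 1.5 ± 0.11 and 2.33 ± 0.18. Spry1, Spred3, Egr1 and Etv1 were also called higher, while the calls of Spry1, Egr1 and Etv1 were lost without day 3 (adjusted p 0.054, 0.077 and 0.15). Etv5, the close relative of Etv4, was at 630.2, 686 and 713 CPM in LIM and at 792, 552 and 492 CPM in LFAI, so its ranges overlapped (adjusted p = 0.496). Dusp5, Errfi1, Phlda1, Spred2, Fos and Ier3 were not called either, at adjusted p from 0.121 to 0.974.

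The 250 bases before the start site are shown for 4 genes, from RefSeq promoters on GRCm38.p6, 5′ to 3′ on the gene's strand. They are the steadily apart members of the MEK/ERK and Nodal lists with the smallest p, leaving out Myc and Skil, which the promoter table did not match. The stretches are those that ERK or SMAD effectors could meet closest to the start. Capitals mark matches, on either strand, to the motifs searched, which were ETS (CGGAAGT), AP-1 (TGANTCA), SMAD (GTCTAGA), STAT (TTCNNNGAA), octamer (ATGCAAA) and the CArG box.
Dusp6, chr10:99262981-99263230, plus strand: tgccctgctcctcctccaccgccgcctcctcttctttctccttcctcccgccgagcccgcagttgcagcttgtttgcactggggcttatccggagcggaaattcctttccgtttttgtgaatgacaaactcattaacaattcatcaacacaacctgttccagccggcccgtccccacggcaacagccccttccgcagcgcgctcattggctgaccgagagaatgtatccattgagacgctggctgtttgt
Spry2, chr14:105896820-105897069, minus strand: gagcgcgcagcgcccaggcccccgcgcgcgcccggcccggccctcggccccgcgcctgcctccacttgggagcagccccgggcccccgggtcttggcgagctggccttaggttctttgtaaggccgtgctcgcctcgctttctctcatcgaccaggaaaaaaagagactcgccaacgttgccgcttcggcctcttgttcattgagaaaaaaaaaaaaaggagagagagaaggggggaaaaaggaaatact
Tdgf1, chr9:110946159-110946408, minus strand: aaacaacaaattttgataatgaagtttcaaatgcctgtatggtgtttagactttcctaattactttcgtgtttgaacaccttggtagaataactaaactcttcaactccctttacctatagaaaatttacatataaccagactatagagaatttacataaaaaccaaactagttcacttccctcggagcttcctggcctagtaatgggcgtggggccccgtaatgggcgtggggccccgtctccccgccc
Il17rd, chr14:27038751-27039000, plus strand: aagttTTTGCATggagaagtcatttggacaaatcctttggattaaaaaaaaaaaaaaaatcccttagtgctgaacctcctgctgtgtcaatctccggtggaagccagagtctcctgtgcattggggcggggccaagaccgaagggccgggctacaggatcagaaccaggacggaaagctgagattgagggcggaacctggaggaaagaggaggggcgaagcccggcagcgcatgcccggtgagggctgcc

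In these 4 stretches the letters matched only the octamer, once, in Il17rd. Promoters of 10624 of the 14471 tested genes were found by symbol, 488 of the steadily higher and 562 of the steadily lower genes among them. The AP-1 letters stood in 6.97% of the steadily higher promoters, in 4.09% of the lower ones and in 4.02% of those of all tested genes, and in 6.87% of all 27025 promoters in the table. The ETS letters stood in 3.89% and 3.20% of the higher and lower promoters, in 9.70% of those of tested genes and in 4.98% of all promoters in the table. For the SMAD letters the shares of higher, lower and all tested genes were 1.23%, 2.14% and 1.81%, and for STAT 5.94%, 6.23% and 5.69%. For the octamer they were 3.28%, 4.80% and 3.07%, and for the CArG box 0.61%, 1.6% and 1.06%. These are descriptions of letters in short windows, with no test.

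Targets and feedback genes of Nodal and Activin were mostly higher in LFAI, though Nodal itself was lower. Of 9 tested, 6 were called higher and 2 lower (13.8% and 15.4% of all tested genes were), with medians of 0.72, 1.53 and 1.16 on days 2, 3 and 4. Tdgf1 (Cripto), the co-receptor of Nodal, was at 226, 201 and 201 CPM in LIM and at 802, 614 and 808 CPM in LFAI (1.82 ± 0.11, adjusted p = 0.00121). The inhibitors Smad7 and Skil, which restrain SMAD signalling, were higher by 1.38 ± 0.11 and 1.27 ± 0.09. Lefty1, a secreted Nodal antagonist, was at 80.1, 74.3 and 105 CPM in LIM and at 116, 333 and 546 CPM in LFAI, and its difference grew by 0.92 ± 0.13 log2 a day (slope adjusted p = 5.19e-05). Nodal was at 102, 112 and 114 CPM in LIM and at 74.1, 79.6 and 76.4 CPM in LFAI (-0.51 ± 0.08, adjusted p = 0.0109), and Fst, the Activin-binding antagonist follistatin, was lower by 1.65 on the log2 scale, at -1.65 ± 0.28. Without day 3 the calls of Nodal, Fst, Lefty1 and Lefty2 were lost (adjusted p 0.12, 0.12, 0.15 and 0.059), and those of Nodal and Lefty1 without day 4 (0.058 and 0.051).

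The other ligand pathways gave mixed counts, to be read against 13.8% higher and 15.4% lower over all tested genes. Of 8 tested FGF ligands and receptors, 3 were called higher and 3 lower. Fgf15 was at 2.98, 11.1 and 18.1 CPM in LIM and at 58.1, 93.5 and 109 CPM in LFAI, while the receptor gene Fgfr2 was at 27.4, 42.6 and 49.8 CPM in LIM and at 7.86, 13.8 and 17.6 CPM in LFAI (-1.64 ± 0.13, adjusted p = 0.00184). Fgfr1 was lower by 0.73 on the log2 scale (-0.73 ± 0.08), a call lost without day 3 (adjusted p = 0.067). Of 8 tested BMP targets, 1 was called higher (Id1) and 2 lower (Id4 and Smad6), and all 3 calls were lost without day 3 (adjusted p 0.055, 0.065 and 0.22). Of 9 tested Wnt targets, 5 were higher and 2 lower. Axin2, the negative regulator that beta-catenin induces, was at 9.84, 8.21 and 6.73 CPM in LIM and at 29.7, 15.1 and 23.9 CPM in LFAI (1.44 ± 0.23, adjusted p = 0.00944), against 123 CPM in L2i. Lef1, a partner of beta-catenin, was at 6.93, 11.2 and 18.7 CPM in LIM and at 119, 184 and 118 CPM in LFAI. Notum, a secreted Wnt inhibitor that Wnt induces, was named after its values were seen. It was at 98.8, 107.8 and 99.95 CPM in LIM and at 62.7, 12.1 and 4.2 CPM in LFAI, so that its gap widened (slope -2.02 ± 0.15, adjusted p = 4.41e-09). Its call over days was lost without day 3 (adjusted p = 0.24), without day 4 (0.07) and without pairing (0.099). Of 11 LIF and STAT3 targets, 1 was higher and 5 lower. Socs3, the STAT3 feedback inhibitor, was at 15.7, 10.6 and 8.62 CPM in LIM and at 14.2, 11.3 and 23.2 CPM in LFAI, with overlapping ranges and no call (0.45 ± 0.33, adjusted p = 0.354). Among the lower members Pim1, a kinase gene, was at 153, 149.8 and 153 CPM in LIM and at 91.0, 58.8 and 57.4 CPM in LFAI, a call lost without day 3 (adjusted p = 0.065).

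Naive pluripotency genes were lower in LFAI than in LIM, and the median gap widened most between day 2 and day 3. All 17 list members were tested. 13 were called lower and 2 higher in LFAI (15.4% and 13.8% of all tested genes), and the medians were -1.26, -3.73 and -4.06 on days 2, 3 and 4, against -0.05 on day 1. Nanog (chromosome 6, 122707489 to 122714633, plus strand), a central regulator of the naive network, was at 999.8, 895 and 841 CPM in LIM and at 169.6, 53.6 and 125 CPM in LFAI (-3.11 ± 0.32, adjusted p = 0.00317). Its ranges were far apart, and its lowest value was on day 3. Zfp42 (Rex1), a marker of the naive state, was at 1114, 1217 and 1206 CPM in LIM and at 582, 75.6 and 49.0 CPM in LFAI. Its daily differences were -0.94, -4.0 and -4.62. Esrrb, a nuclear receptor gene of the same network, was at 674, 709 and 643 CPM in LIM and at 326, 39.1 and 18.7 CPM in LFAI. Prdm14, a repressor that guards the naive state, was at 79.3, 64.5 and 64.3 CPM in LIM and at 12.4, 0.588 and 0.724 CPM in LFAI. Klf4 was at 93.5, 87.1 and 70.5 CPM in LIM and at 30.9, 4.63 and 3.04 CPM in LFAI, and Tfcp2l1, a target of LIF and STAT3, was at 430.3, 342 and 274 CPM in LIM and at 102, 25.6 and 16.4 CPM in LFAI.

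Which naive genes were called depended on day 3. The same held over all tested genes, with 1991 called higher and 2235 lower with day 3, and 235 and 314 without it. Crxos and Nanog kept their calls without it, while Klf4, Tfcp2l1, Prdm14, Zfp42, Esrrb, Tbx3, Fbxo15, Nr5a2, Klf2, Tcl1 and Dppa3 lost theirs (adjusted p from 0.053 to 0.2), as did the 2 higher genes. Zfp42, Esrrb, Dppa3 and Zscan10 also lost theirs without day 4 (0.064, 0.058, 0.11 and 0.07), and Zfp42 and Esrrb in the fit without pairing by day (0.077 and 0.09). In each of the 13 lower genes the level in all 3 LFAI libraries was below that in all 3 LIM libraries. The test of a difference that moves with day called 15 of the 17 downward (5.54% of all tested genes), Nanog and Zscan10 being the exceptions. Tbx3 was at 133, 119.5 and 92.0 CPM in LIM and at 15.1, 1.47 and 1.08 CPM in LFAI. Klf5 was equal on day 2, at 59.0 CPM in both media, and at 59.1 and 48.7 CPM in LIM against 14.1 and 17.4 CPM in LFAI afterwards. Gbx2, a homeobox gene, went against the list, at 3.95, 6.92 and 7.26 CPM in LIM and at 47.9, 18.1 and 16.6 CPM in LFAI.

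Core pluripotency genes, shared by naive and primed cells, were called in both directions, and the difference of most moved downward with day. Of 10 tested, 3 were called higher and 2 lower (13.8% and 15.4% of all tested genes were). The medians were 0.76, 0.42 and 0.12. Pou5f1 (Oct4) was at 1306, 1551 and 1637 CPM in LIM and at 1670, 1507 and 1353 CPM in LFAI, with overlapping ranges (0.01 ± 0.14, adjusted p = 0.956). Sox2 was at 291, 294 and 262 CPM in LIM and at 226, 113 and 105 CPM in LFAI (-1.02 ± 0.21, adjusted p = 0.0209), a call lost without day 3 (0.15) and without day 4 (0.059). Lin28a, an RNA-binding protein gene that rises toward the primed state, was at 85.7, 162 and 186 CPM in LIM and at 477, 576 and 558 CPM in LFAI. Utf1 was at 68.9, 106 and 100.1 CPM in LIM and at 303, 328 and 258 CPM in LFAI. The slope was called downward in 7 of the 10 (5.54% of all tested genes).

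**Figure D2:**
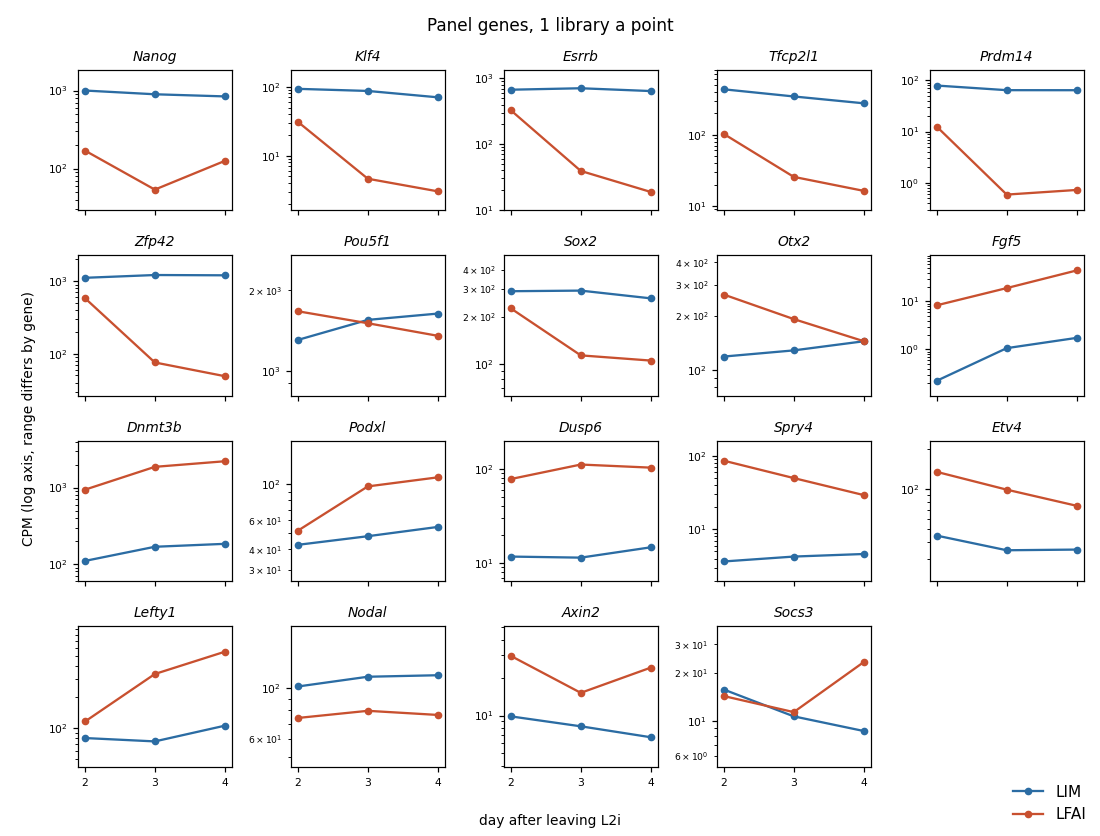
CPM (log axis, its range set for each gene) of the tested panel genes against day after leaving L2i, in LIM (blue) and LFAI (red), 1 library a point. Nanog, Esrrb, Zfp42, Klf4, Prdm14 and Tfcp2l1 lay below their LIM levels on all 3 days in LFAI, Dnmt3b, Fgf5 and Dusp6 above, and the curves of Pou5f1 crossed while Otx2 reached 145 CPM in LFAI and 144 CPM in LIM on day 4.

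Early epiblast genes were mostly higher in LFAI from day 2, with a median that stayed near its day 2 value. Of 13 tested, 11 were called higher (13.8% of all tested genes) and none lower, with medians of 2.14, 2.41 and 2.16. Dnmt3b (chromosome 2, 153649450 to 153687730, plus strand), a de novo DNA methyltransferase gene, was at 109.9, 168 and 184 CPM in LIM and at 939, 1867 and 2208 CPM in LFAI (3.39 ± 0.13, adjusted p = 0.00053). Pou3f1 (Oct6) was at 2.38, 5.25 and 7.41 CPM in LIM and at 58.3, 135 and 125 CPM in LFAI (4.44 ± 0.17). Fgf5, the classical marker of the epiblast after implantation, was at 0.224, 1.06 and 1.74 CPM in LIM and at 8.32, 18.9 and 44.1 CPM in LFAI (4.55 ± 0.26, adjusted p = 0.001). Both media showed more Fgf5 on day 4 than on day 2, and the slope of the difference was not called (-0.04 ± 0.29). The kinase gene Pim2 was at 24.9, 27.1 and 33.4 CPM in LIM and at 110.1, 525 and 674 CPM in LFAI, and its difference grew (1.08 log2 a day, adjusted p = 0.000108). Sox3, Pim2, Zic2 and Zic5 lost their calls without day 3 (adjusted p from 0.053 to 0.27), and Zic2 and Zic5 also without day 4 (0.057 and 0.22).

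Otx2, which directs the exit toward the primed state, differed on day 2 and no longer on day 4. It was at 118, 128 and 144 CPM in LIM and at 264, 192 and 145 CPM in LFAI, so that the daily difference closed from 1.15 to 0.58 to 0.00 (slope -0.58 ± 0.10 log2 a day, adjusted p = 0.000488). The test over days did not call it (0.58 ± 0.22, adjusted p = 0.0979). In L2i it was at 13.6 CPM. Foxd3 was not called either, at 11.9, 21.1 and 16.9 CPM in LIM and at 31.4, 26.8 and 20.8 CPM in LFAI.

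Genes of the primitive streak, mesoderm and endoderm were scarce in both media. Only 3 of 13 passed the filter on low counts. T (Brachyury), the defining marker of the streak, had 12 counts over the 3 libraries of LIM and 12 over those of LFAI, and Cer1 had 0 in all 6. Gsc was lower in LFAI, at 1.56, 2.05 and 2.12 CPM in LIM and at 0.077, 0 and 0.0723 CPM, a call lost without day 3 (adjusted p = 0.055). Eomes was at 9.69, 8.97 and 11.3 CPM in LIM and at 9.32, 9.99 and 6.80 CPM in LFAI (adjusted p = 0.554). Below the filter, which needs enough counts in 3 libraries, Wnt3 had 2, 3 and 4 counts in LIM and 2, 83 and 124 counts in LFAI. Fgf8 had 5, 1 and 3 counts in LIM and 4, 36 and 60 in LFAI. These 2 genes were not tested, and their high values were on days 3 and 4 of LFAI.

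Many of the leading steadily higher genes were almost silent in LIM. By the smallest of the 3 daily differences, the first 12 with at least 5 CPM were Col6a5, Ccdc194, Gbp2, Xist, Gbp2b, Zfp608, Vrtn, Enpp2, Car4, Esrp1, Grhl2 and Rxrg. Esrp1 and Grhl2 among them are regulators of epithelial identity. Esrp1 (chromosome 4, 11331933 to 11386783, minus strand), a splicing factor of epithelial cells, was at 2.01, 4.49 and 5.75 CPM in LIM and at 66.9, 90.3 and 119 CPM in LFAI (4.54 ± 0.18, adjusted p = 0.00053). Grhl2, a transcription factor gene that opens epithelial enhancers, was at 3.65, 4.64 and 3.33 CPM in LIM and at 118, 87.8 and 70.8 CPM in LFAI (4.55 ± 0.19, adjusted p = 0.000575). Vrtn was at 1.04, 3.04 and 5.44 CPM in LIM and at 76.3, 116 and 132 CPM in LFAI, and its gap narrowed as LIM rose (slope -0.76 ± 0.19, adjusted p = 0.0127). Zfp608, a zinc finger gene, was at 0.0745, 0.152 and 0.378 CPM in LIM and at 5.70, 30.8 and 67.4 CPM in LFAI.

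Several of these genes had no or almost no counts in LIM, so their folds are bounds. Ccdc194 had 0 counts over the 3 LIM libraries and 422 over those of LFAI, at least 138.5-fold higher against a floor of 3 counts over the group. Rxrg, a retinoid X receptor gene, had 0 and 354, at least 116.2-fold higher. Gbp2b had 0 and 241 (at least 79.1-fold), and its neighbour Gbp2 had 1 and 443, a ratio of 436.2 with a 95% counting interval of 77.9 to 17270. Both encode interferon-inducible GTPases of the same family, and whether reads of 1 were counted for the other was not tested. Xist, the RNA that coats an inactive X chromosome, was at 0.0745, 0.38 and 1.06 CPM in LIM and at 12.4, 66.9 and 38.5 CPM in LFAI (6.24 ± 0.44, adjusted p = 0.00152). Col6a5, a collagen VI chain gene, was at 0.149, 0.152 and 0 CPM in LIM and at 25.3, 23.5 and 9.48 CPM in LFAI, while L2i held 3.79 CPM. Enpp2 (autotaxin) was at 0.0745, 0.228 and 0.227 CPM in LIM and at 6.39, 8.45 and 18.2 CPM in LFAI, and Car4, a carbonic anhydrase gene, at 0, 0.836 and 2.12 CPM against 11.0, 31.1 and 47.2 CPM.

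The leading steadily lower genes were expressed in LIM and nearly absent from LFAI by day 2. The first 12 were Aqp3, Calcoco2, Sgcz, Ly6a, Hhip, Hesx1, Lmx1b, Sash3, Srrm4os, Spic, Tfap2c and Fat2. Calcoco2 (chromosome 11, 96099326 to 96111964, minus strand), an autophagy receptor gene, was at 424, 477 and 416 CPM in LIM and at 10.0, 1.47 and 1.45 CPM in LFAI (-6.98 ± 0.65, adjusted p = 0.00258), and its gap widened (slope -1.66 ± 0.23). Aqp3, a channel for water and glycerol, was at 93.1, 76.9 and 67.1 CPM in LIM and at 1.08, 1.32 and 0.868 CPM in LFAI (-6.17 ± 0.17, adjusted p = 0.000488). Tfap2c (chromosome 2, 172549593 to 172558622, plus strand), a transcription factor gene of naive cells, germ cells and trophoblast, was at 55.3, 52.1 and 47.8 CPM in LIM and at 1.31, 1.18 and 1.45 CPM in LFAI (-5.29 ± 0.17, adjusted p = 0.00053). Spic, an ETS-family factor gene, was at 40.3, 40.0 and 37.0 CPM in LIM and at 1.16, 0.22 and 0.217 CPM in LFAI. These 4 genes were already expressed in L2i, at 214 (Calcoco2), 92.3 (Aqp3), 38.7 (Tfap2c) and 36.6 (Spic) CPM.

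Hhip, Lmx1b, Hesx1 and Fat2 were low in L2i and higher in LIM. Hhip, an antagonist of Hedgehog ligands, was at 2.69 CPM in L2i, at 56.5, 52.5 and 52.2 CPM in LIM and at 1.39, 0.661 and 0.796 CPM in LFAI (-5.83 ± 0.23, adjusted p = 0.00053). Lmx1b, a LIM-homeodomain gene, was at 1.16 CPM in L2i, at 18.5, 31.5 and 33.3 CPM in LIM and at 0.385, 0.22 and 0.145 CPM in LFAI. Hesx1, a homeobox gene of the anterior head, was at 0.146 CPM in L2i, and had 301 counts in LIM and 2 in LFAI, a ratio of 152.9 with an interval of 41.95 to 1268. Fat2 was at 2.91 CPM in L2i, at 26.8, 22.3 and 26.2 CPM in LIM and at 0.77, 0.588 and 0.362 CPM in LFAI. Sgcz had 250 counts in LIM and 0 in LFAI, at least 84.6-fold lower, and Sash3 had 205 and 0, at least 69.4-fold lower. Sgcz was at 5.39 CPM in L2i and at 5.75 to 6.56 CPM in LIM. Ly6a was at 67.7 CPM in L2i and at 41.7, 18.6 and 5.44 CPM in LIM, with 0.616, 0.147 and 0 CPM in LFAI. Srrm4os, at 11.6 CPM in L2i, 16.4, 16.3 and 16.3 CPM in LIM and at 0.231, 0.0734 and 0.362 CPM in LFAI, is antisense to Srrm4, and reads of the pair cannot be told apart where counting did not use strand. None of the 24 leading genes lost its call when any 1 day was left out. They were chosen for a large difference on every day, so this is no separate support.

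The difference moved with day in 1297 genes, 496 upward (3.43%) and 801 downward (5.54%). In 1014 of them the gap was larger on day 4 than on day 2 and in 283 it was smaller. Of the 1297, 1170 moved in 1 direction on both day steps, and in 892 of these the step from day 2 to day 3 was the larger. These counts are less firm than those of the steady difference. Without the pairing by day they were 223 and 485, and with DESeq2's Wald test they were 54 and 243. Leaving out a day could not be tried, since 2 days leave no degrees of freedom for a slope.

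**Figure D3:**
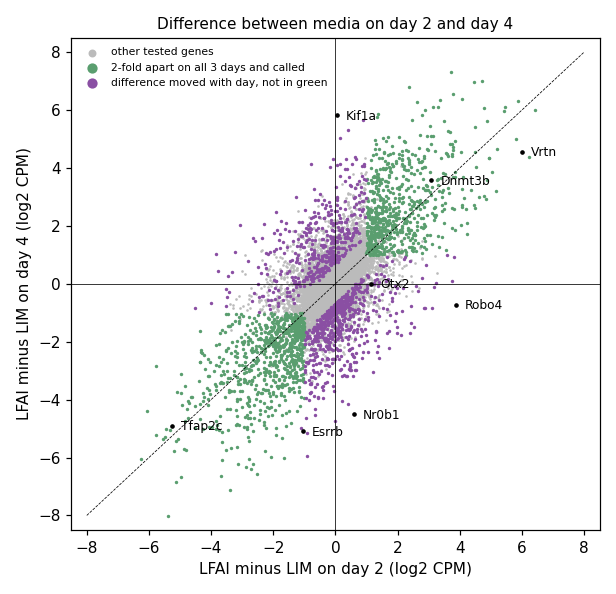
LFAI minus LIM in log2 CPM on day 2 (horizontal) and on day 4 (vertical) for the 14471 tested genes, with the dashed line marking equal differences. The 1453 genes steadily apart (green, with or without a called slope) fill both far corners along the dashed line. Other genes whose difference moved with day (purple) lie off it, Nr0b1 and Robo4 having changed sign between the days.

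The 8 genes named downward had the largest moves from day 2 to day 4 among those that moved in 1 direction on both steps, and included members of the naive network and a gene of the early embryo. Nr0b1 (Dax1; X chromosome, 86191764 to 86195947, plus strand), a nuclear receptor gene of the naive network, was at 47.7, 74.3 and 76.8 CPM in LIM and at 72.2, 10.6 and 3.26 CPM in LFAI. Its daily differences were 0.60, -2.80 and -4.50 (slope -2.70 ± 0.18, adjusted p = 8.23e-10). Khdc3, an oocyte and early embryo gene, was at 28.6, 29.5 and 18.9 CPM in LIM and at 8.94, 0.588 and 0.145 CPM in LFAI (slope -3.34 ± 0.38). Inhbb, which encodes the beta B chain of activins and inhibins, was at 15.6, 11.9 and 9.75 CPM in LIM and at 15.4, 0.955 and 0.217 CPM in LFAI (slope -3.09 ± 0.36). Smyd1 was at 56.5, 53.6 and 34.6 CPM in LIM and at 9.79, 1.03 and 0.217 CPM in LFAI, and Platr26, a non-coding RNA gene named for its link to pluripotency, at 7.08, 7.37 and 7.03 CPM against 8.24, 0.661 and 0.289 CPM. Esrrb, given above, had a slope of -2.07 ± 0.17. In the test over days Khdc3 and Smyd1 were called lower, calls lost without day 3 (adjusted p 0.17 and 0.1), and Khdc3 was also lost without pairing (0.057).

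Robo4 and Myo1g were higher in LFAI on day 2 and lower on day 4. Robo4, a guidance receptor gene known from endothelium, was at 1.71, 0.988 and 2.50 CPM in LIM and at 27.1, 4.19 and 1.45 CPM in LFAI (slope -2.36 ± 0.34, adjusted p = 5.37e-05). Myo1g, a myosin gene of blood cells, was at 2.53, 2.89 and 2.12 CPM in LIM and at 15.4, 2.35 and 0.651 CPM in LFAI (slope -2.25 ± 0.40). In all, 65 genes with a called slope were 2-fold apart in opposite directions on days 2 and 4.

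The 8 genes named upward by the same rule were low in LIM on every day, and several were equal or lower in LFAI on day 2. Kif1a (chromosome 1, 93015464 to 93101951, minus strand), a neuronal transport motor gene, was at 1.94, 1.6 and 3.48 CPM in LIM and at 2.00, 87.5 and 207 CPM in LFAI, so that the media were equal on day 2 (0.04) and 5.83 log2 apart on day 4 (slope 2.45 ± 0.46, adjusted p = 0.00107). Greb1, known as an oestrogen-responsive gene, was at 0.373, 0.836 and 0.302 CPM in LIM and at 0.539, 9.18 and 17.9 CPM in LFAI (slope 2.64 ± 0.61). Ankrd34b, Igsf1 and Padi3 followed, with LFAI reaching 5.14, 13.2 and 6.87 CPM on day 4 against 0.151, 1.51 and 2.19 CPM in LIM. On day 2, Igsf1 and Padi3 had been lower in LFAI, by differences of -1.28 and -2.64. The slope calls of Kif1a, Greb1 and Ankrd34b were lost without the pairing by day (adjusted p 0.21, 0.18 and 0.091), and those of Kif1a, Igsf1 and Padi3 with DESeq2 (0.32, 0.081 and 0.11). In the test over days Kif1a and Greb1 were called higher, at 4.71 ± 1.11 and 3.71 ± 0.89, and both calls were lost without day 4 (adjusted p 0.12 and 0.086) and that of Kif1a also without day 3 (0.25).

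Zscan4 genes and other markers of the 2-cell-like state, in which a small fraction of stem cells expresses genes of the embryo at genome activation, had the largest rise in median difference from day 2 to day 4 of the 28 lists. Of the 10 listed, 9 were in the files and 8 were tested, with the slope called upward in 8 (3.43% of all tested genes). Tcstv1, below the filter, had 5 counts in LIM and 99 in LFAI. The medians were 1.11, 2.88 and 4.19 on days 2, 3 and 4, and the summed level was 7.83 to 18.6 CPM in LIM and 53.5 to 191 CPM in LFAI. Zscan4f was at 3.06, 1.29 and 1.51 CPM in LIM and at 15.1, 25.9 and 49.2 CPM in LFAI (slope 1.39, adjusted p = 0.000826). Zscan4d was at 5.37, 2.05 and 3.10 CPM in LIM and at 16.7, 22.5 and 50.6 CPM in LFAI. Zscan4e, Zscan4b and Tcstv3 were among the 8 largest moves upward, reaching 8.68, 12.1 and 5.86 CPM in LFAI on day 4 against 0, 0.0756 and 0.151 CPM in LIM. The slope call of Zscan4b was lost with DESeq2 (adjusted p = 0.077). In the test over days 5 of the 8 were called higher, and the calls of Zscan4f, Zscan4c, Zscan4d and Usp17lc were lost without day 3 (adjusted p from 0.069 to 0.16), that of Usp17lc also without day 4 (0.066). Zscan4b and Zscan4e, called too, lost theirs without day 3 (0.2 and 0.24), and Zscan4e without day 4 (0.059). These are families of near-identical copies, so the level of any single member is uncertain.

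Genes of DNA methylation and germline genes that methylation silences both gave mixed counts, beside 13.8% higher and 15.4% lower over all tested genes. Of 10 genes of the methylation machinery, 4 were called higher and 1 lower. Dnmt3a, the other de novo enzyme, was at 222, 286 and 319 CPM in LIM and at 881, 1039 and 700.2 CPM in LFAI (1.66 ± 0.18, adjusted p = 0.00385). Dnmt3l, their cofactor, was named after its values were seen. It was at 78.2, 143 and 190.0 CPM in LIM and at 702, 519 and 175 CPM in LFAI, so that its gap closed by day 4 (slope -1.64 ± 0.11, adjusted p = 8.23e-10). Tdg and Uhrf2 were higher by 0.52 and 0.37, calls lost without day 3 (adjusted p 0.18 and 0.26) or day 4 (0.081 and 0.12). Of 12 germline genes tested, 5 were higher and 3 lower. Mael and Ddx4, which act in piRNA pathways, were at 3.8 to 5.07 and 5.4 to 5.96 CPM in LIM, and at 16.9, 37.8 and 32.0 CPM and 17.6, 32.4 and 42.9 CPM in LFAI. Dazl, an RNA-binding protein gene of germ cells, was at 70.6, 41.1 and 40.1 CPM in LIM and at 20.0, 20.8 and 9.48 CPM in LFAI (-1.62 ± 0.23). Without day 3 Ddx4 (0.059) and Sohlh2 (0.061) lost their calls.

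Imprinted genes were mostly higher in LFAI in the course, but not in the second set given at the end. Of 14 tested, 10 were called higher and 1 lower (13.8% and 15.4% of all tested genes), with medians of 0.97, 1.40 and 1.27. Peg10, a retrotransposon-derived gene expressed from the paternal allele, was at 29.1, 26.1 and 32.0 CPM in LIM and at 367, 219 and 283 CPM in LFAI (3.29 ± 0.15, adjusted p = 0.000714). Snrpn was at 65.3, 73.8 and 83.1 CPM in LIM and at 163, 184 and 197 CPM in LFAI, and Mirg, of the Dlk1 and Meg3 cluster, at 22.6, 28.7 and 28.6 CPM against 48.1, 68.1 and 70.8 CPM. Plagl1, a zinc finger gene, was the exception, at 83.9, 59.7 and 49.5 CPM in LIM and at 3.93, 5.21 and 7.45 CPM in LFAI (-3.52 ± 0.33, adjusted p = 0.00258). Allele-specific expression was not measured.

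Epithelial genes were called mostly higher and basement membrane genes mostly lower, beside 13.8% and 15.4% over all tested genes. Of 21 genes for apical polarity, junctions and lumen, 10 were called higher and 2 lower. Epcam, a surface adhesion protein of epithelia, was at 62.9, 54.9 and 60.6 CPM in LIM and at 301, 242 and 271 CPM in LFAI (2.19 ± 0.08, adjusted p = 0.00053). Cldn6, a claudin of tight junctions, was at 6.11, 6.77 and 5.22 CPM in LIM and at 20.3, 53.7 and 97.3 CPM in LFAI, and its gap widened (slope 1.25, adjusted p = 1.93e-05). Cgn was higher by 1.58 ± 0.12, and Cldn4 lower, at -1.29 ± 0.12. Podxl, a sialomucin of the apical surface, was at 42.6, 48.0 and 54.7 CPM in LIM and at 52.0, 97.0 and 110.2 CPM in LFAI (0.77 ± 0.17, adjusted p = 0.023). Cldn6 and Podxl lost their calls without day 3 (adjusted p 0.081 and 0.18), and Podxl also without day 4 (0.075). Of 18 basement membrane and integrin genes, 13 were lower and 2 higher, with medians of -0.82, -1.31 and -1.05. Nid1, which links laminin to collagen IV, was at 689, 644 and 525 CPM in LIM and at 95.2, 24.8 and 22.4 CPM in LFAI (-4.03 ± 0.41, adjusted p = 0.00315). Lama1, the laminin chain of the first embryonic basement membranes, was at 56.7, 52.9 and 40.6 CPM in LIM and at 15.9, 7.93 and 11.3 CPM in LFAI, and Itgav was lower at -1.30 ± 0.12. Agrn was lower at -1.20 ± 0.14, a call lost without day 3 (0.055).

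Among cadherins and regulators of the epithelial-mesenchymal transition, 3 of 9 were higher and 3 lower (13.8% and 15.4% of all tested genes). Ncam1, a neural adhesion molecule, was at 104, 114 and 120.4 CPM in LIM and at 13.4, 9.55 and 14.0 CPM in LFAI (-3.20 ± 0.15, adjusted p = 0.000749). Zeb1 and Zeb2, related repressors of E-cadherin, differed in direction. Zeb1 was at 62.6, 63.6 and 66.0 CPM in LIM and at 36.3, 28.1 and 13.6 CPM in LFAI, and Zeb2 at 0.447, 1.44 and 2.65 CPM against 3.39, 5.80 and 8.90 CPM. Both calls were lost without day 3 (adjusted p 0.11 and 0.098). Of 7 contractile genes 3 were higher and 1 lower, all 4 calls lost without day 3 (Tpm2 0.057, Cnn1 0.074, Tpm1 0.11 and Tagln 0.17), and that of Tagln also without day 4 (0.23) and without pairing (0.059).

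**Figure D4:**
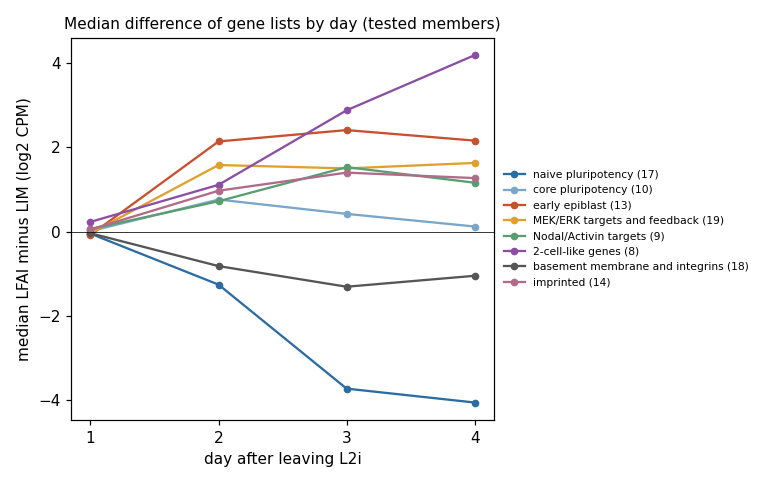
Median LFAI minus LIM in log2 CPM over the tested members of 8 gene lists (number of members in brackets) on days 1 to 4, each point from 1 library of each medium. All medians lay near 0 on day 1; by day 4 that of the naive list was at -4.06 and that of the 2-cell-like list at 4.19, while the early epiblast and MEK/ERK medians stayed level from day 2.

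Metabolic, cell cycle and stress lists had medians nearer 0, and their counts stand beside 13.8% higher and 15.4% lower over all tested genes. Of 18 glycolysis genes, 8 were higher and 3 lower, with medians of 0.16, 0.21 and 0.22. Slc2a3 (Glut3), a glucose transporter gene, was at 1830, 1579 and 1704 CPM in LIM and at 699, 261 and 388 CPM in LFAI (-2.04 ± 0.24), and Hk1, hexokinase 1, at 223, 205 and 168 CPM against 60.6, 34.1 and 38.9 CPM. Slc16a3, a lactate exporter gene, was higher by 1.00 ± 0.10 and Pfkl by 1.1 ± 0.12, calls at the border without day 3 (adjusted p 0.052 and 0.05). Of 15 respiration genes none was higher and 3 were lower, a share near that of all genes, led by Cox5a (-1.1 ± 0.13), Sdhb and Ndufb8, all 3 lost without day 3 (0.059, 0.21 and 0.21). Of 18 cholesterol synthesis genes 5 were higher and 1 lower, and Lss and Sqle each differed by less than 0.74 in size and lost their calls without day 3 (0.17 and 0.26) and without day 4 (0.073 and 0.22). Of 13 G1 regulators 3 were higher and 5 lower. Cdkn1c, an imprinted inhibitor of the cell cycle, was at 5.52, 12.2 and 19.6 CPM in LIM and at 33.5, 75.8 and 62.9 CPM in LFAI, while the inhibitor Cdkn1b was lower at -0.73 ± 0.09, a call lost without day 3 (0.084). Of 12 p53 targets 1 was higher and 2 lower, and of 12 genes of the integrated stress response 1 was higher and none lower. In the stress list 6 of 12 slopes were called downward (5.54% of all tested genes), among them Atf4, its central transcription factor, at 397, 493 and 487 CPM in LIM and at 413, 317 and 218 CPM in LFAI (slope -0.61, adjusted p = 0.000215).

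Markers of other cell types gave calls in both directions (13.8% higher and 15.4% lower over all tested genes). Of 12 neural progenitor genes 6 were tested, with 1 higher and 4 lower and a summed level of 222 to 248 CPM in LIM and 62.3 to 204 CPM in LFAI. Sox21 was at 57.0, 53.2 and 56.2 CPM in LIM and at 2.85, 1.98 and 1.59 CPM in LFAI, while Sox1 was at 12.0, 10.6 and 9.53 CPM against 18.4, 18 and 24.8 CPM, a call lost without day 3 (0.14) and without day 4 (0.094). Of 14 primitive endoderm genes 9 were tested, with 2 higher and 4 lower (summed 613 to 656 CPM in LIM and 239 to 376 CPM in LFAI). Sparc, a matrix protein gene, was at 374, 393 and 367 CPM in LIM and at 75.8, 47.4 and 67.9 CPM in LFAI, but the defining Gata6 had 6 counts in LIM and 41 in LFAI, of which 31 were on day 2, and Sox17 had 19 and 16. Of 13 trophoblast genes 8 were tested, with 1 higher and 4 lower (111 to 125 CPM in LIM and 44.5 to 53.5 CPM in LFAI), and Cdx2 had 0 counts in LIM and 5 in LFAI. The keratins of that list were higher or had more counts in LFAI. Krt18 was at 2.61, 3.19 and 2.65 CPM in LIM and at 11.2, 16.0 and 24.2 CPM in LFAI (2.54 ± 0.28, adjusted p = 0.00385), Krt8 had a called upward slope (0.94, adjusted p = 0.0406), and Krt7 and Krt19, not tested, had 11 and 14 counts in LIM and 61 and 70 in LFAI. Of 10 fibroblast genes 4 were tested and 1 (Fbn1) was higher (12.6 to 14.5 CPM in LIM and 16.5 to 49.6 CPM in LFAI), a call lost without day 3 (0.27) and day 4 (0.16). Col1a2 had 0 counts in LIM and 27 in LFAI, 22 of them on day 4. Col3a1 had 0 counts in LIM and 1 in LFAI, Lum had 0 in all 6 libraries, and Dcn had 0 and 24. Pou5f1, the defining marker of pluripotent cells, was at 1306 CPM or more in all 6 libraries. The part of these markers in the other differences was not tested.

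The second set held LFAI for 4 days and LIM in R1 and CGR8 (2 libraries a group), in which 12.3% of 15525 tested genes were called higher and 17.2% lower in LFAI. Of the steadily lower genes, 743 were tested there, and 519 (69.9%) were called lower and 8 higher. Of the steadily higher genes, 649 were tested, and 251 (38.7%) were called higher and 45 (6.9%) lower. Over all course genes tested there the shares were 12.4% higher and 17.8% lower. In that set LIM cells had been in LIM far longer than LFAI cells in LFAI, and coating, passage and sequencing protocol differed from the course, so time and medium cannot be told apart there.

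Dusp6 was higher in the second set too (3.35, adjusted p = 2.76e-05), and so were Myc (1.61), Fgf5 (3.49), Esrp1 (1.68) and Grhl2 (1.94). Tfap2c (-5.75), Calcoco2 (-8.51), Spic (-7.74), Hesx1 (-9.03) and Lmx1b (-6.22) were lower there. Spry2 and Tdgf1 were not called (0.08 and -0.07, adjusted p 0.811 and 0.888). Tdgf1 was at 181 (R1) and 216 (CGR8) CPM in LFAI at 4 days and at 126 and 291 CPM in LIM, compared with 614 CPM or more in LFAI in the course. Some genes went the other way. Peg10 was lower (-2.96, adjusted p = 0.0104), at 72.4 (R1) and 16.3 (CGR8) CPM in LFAI and at 493 and 199.9 CPM in LIM. Xist was at 0 and 0.196 CPM in LFAI and at 1.13 and 3.21 CPM in LIM (-4.39, adjusted p = 0.0139). Axin2 (-1.74), Id1 (-2.17), Zeb2 (-5.0), Mael (-2.10) and Sox1 (-3.77) were called higher in the course and lower in the second set. The same held for Podxl (-0.89), Gbx2 (-3.92), Dppa2 (-2.65) and Fgfr3 (-2.18). Col6a5, Hhip and Rxrg were not called (adjusted p 0.725, 0.312 and 0.87). Of 14 imprinted genes 2 were called higher and 5 lower in the second set, and of 12 germline genes 0 and 10. Other lists kept their direction there. Of 19 MEK/ERK genes 11 were higher and 1 lower, of 13 early epiblast genes 8 and 0, and of 17 naive genes 0 and 16. Over all course genes tested there the shares were 12.4% and 17.8%.

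**Figure D5:**
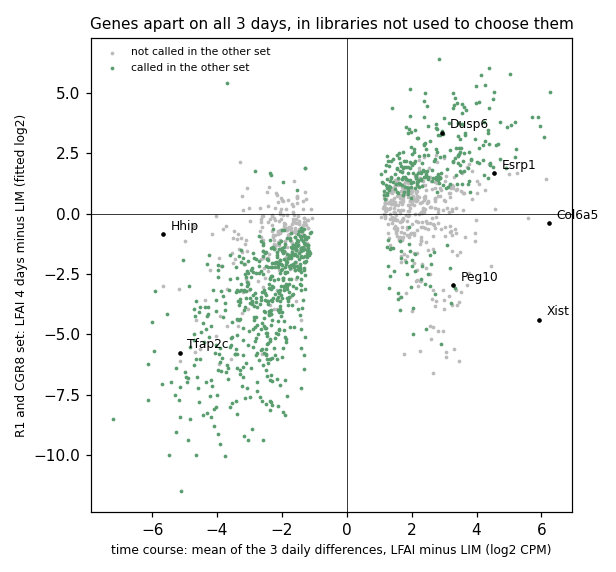
Mean of the 3 daily differences in the course (horizontal, log2 CPM) against the fitted log2 difference between LFAI at 4 days and LIM in the R1 and CGR8 set (vertical), for the steadily apart genes tested in both. The lower genes lie mostly below 0 on the vertical axis (519 of 743 called lower), whereas the higher genes spread to both sides (251 of 649 called higher, 45 lower), with Xist and Peg10 below 0.

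Movement with day could be set beside LFAI at 4 days against 35 h in the second set, in which 17.7% of genes were called higher and 19% lower. This comparison holds LFAI only and so says nothing of LIM. Of 495 genes whose difference moved upward in the course, 295 (59.6%) were higher at 4 days and 42 lower. Of 798 that moved downward, 648 (81.2%) were lower and 12 higher. Nr0b1 was at 108 (R1) and 157 (CGR8) CPM at 35 h and at 0.441 and 1.04 CPM at 4 days, and Kif1a went from 1.89 and 1.30 CPM to 337 and 315 CPM. The Zscan4 genes did not follow. Zscan4f was at 2.94 (R1) and 26.4 (CGR8) CPM at 35 h and at 0.378 and 0.457 CPM at 4 days, and Zscan4b (-6.93, adjusted p = 0.00991) and Tcstv3 (-7.66, adjusted p = 0.0209) were called lower at 4 days, against the direction in the course.

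On day 1, where each medium has 1 library and there is no test, 151 genes were 2-fold higher (1.06% of 14214) and 128 lower (0.901%) in the library labelled LFAI, most of them with few counts. With 5 CPM or more in the higher library, 2 were higher and 13 lower. The lowest were Lars2, Mir6236, Rn7sk, Rmrp, Rpph1 and Kcnq1ot1. Lars2 was at 3629 CPM in LIM and 434 CPM in the library labelled LFAI, and Mir6236 at 716 and 75.3 CPM. Rn7sk, Rmrp and Rpph1, which encode structural RNAs that lack a polyA tail, were at 33.0, 12.9 and 10.2 CPM in LIM and at 2.63, 0.803 and 1.97 CPM in the library labelled LFAI. LIM on day 1 was the further of the 2 libraries from LIM on day 2. The mean chi-square per gene between counts was 30 for it and 8.36 for the library labelled LFAI. Against L2i on day 0 the values were 43.7 and 23.5. Whether these genes were raised in LIM on day 1 or lowered in the other library was not tested. The highest were Rex2, Zfp991, Nhsl2, Maml2, Usp29 and Zfp980, with differences of 1.01, 0.90, 0.87, 0.85, 0.81 and 0.80. Of the steadily apart genes with their medians near 0 on day 1 (0.04 and -0.01), none with 5 CPM or more in the higher library was 2-fold apart in the opposite direction on that day. Adding the day 1 pair to the fit left 0 of 14214 genes called by edgeR, with 1893 higher and 2116 lower at an unadjusted p under 0.05. Limma-voom called 0 as well, and DESeq2 called 919 higher and 1248 lower.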

How the data were processed

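RNA was sequenced from stranded mRNA libraries, and the deposited values are whole-number read counts per gene. Per the submitters' processing notes, the authors used HISAT2 2.0.4, HTSeq 0.6.1, DESeq2 1.10.1 and the builds GRCm38 and mm10. The strand setting and gene annotation are not given in the sources used here. The 5 entries per library that name no gene (48.2 to 51.2% of reads in the course after L2i) were left out. Symbols and positions come from GENCODE M21, promoters from RefSeq.

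Counts were filtered with filterByExpr, scaled by TMM and tested with edgeR 4.0.16 (R 4.3.3), quasi-likelihood, two-sided, Benjamini-Hochberg adjusted, with day as a block. The movement with day is the medium-by-day term. Limma 3.58.1, DESeq2 1.42.0, other filters, scalings and days were alternatives. Pairing comes from the labelled time since L2i. Same-day deviations correlated at 0.085, -0.042 and 0.169 over 10900 genes on days 2, 3 and 4. In the second set each line gave 1 library a group.

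Named genes were the 12 with the largest smallest daily difference in each direction, the 8 in each direction with a called slope and the largest move from day 2 to day 4, in 1 direction on both steps, the 6 most apart on day 1 (each with 5 CPM or more) and a panel of 20. Members of the 28 lists were named in order of p. Members and lists were chosen with earlier results of these data known. On simulated counts the paired test recovered 64% of 2-fold changes over 14244 genes, and the slope test 46.5% of changes of log2 1 a day over 14230. Some list members are not reported here.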

Additional observations from a re-analysis of the deposited data

Results flagged for a closer look

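The difference between LFAI and LIM moved with day, by the medium-by-day term of edgeR's quasi-likelihood test at an adjusted p under 0.05, in these 27 genes of those named by rank or in the panel. Slopes called in other list members stand in the report. Values are in log2 a day. Upward slopes were 2.45 for Kif1a, 2.64 for Greb1, 3.21 for Ankrd34b, 2.94 for Zscan4e, 2.59 for Zscan4b, 2.76 for Tcstv3, 2.17 for Igsf1 and 2.15 for Padi3. Smaller upward slopes were 0.92 for Lefty1 and 0.78 for Socs3. Downward slopes were -3.34 for Khdc3, -3.09 for Inhbb, -2.77 for Smyd1, -2.73 for Platr26 and -2.7 for Nr0b1. Robo4 had -2.36, Myo1g -2.26 and Calcoco2 -1.66. In the naive list the slopes were -2.4 for Prdm14, -2.07 for Esrrb, -1.86 for Zfp42, -1.62 for Klf4 and -1.02 for Tfcp2l1. Slopes of -0.94 for Spry4, -0.76 for Vrtn, -0.58 for Otx2 and -0.48 for Sox2 were also called. Each slope rests on 3 libraries a medium and 1 residual degree of freedom.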

How the results depend on the processing

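Counts are given as higher and lower in LFAI, or upward and downward. Over days 2 to 4 the numbers called stayed within 1.5 times their values in the text without the day pairing (no replicate block, 2434 and 2454), with DESeq2, limma-voom, DESeq2's size factors and no filter. Against a threshold of log2 1 (glmTreat) 355 and 427 were called, all of them also 2-fold on all 3 days. With the day 1 pair added edgeR called 0 and 0 (1893 and 2116 at an unadjusted p under 0.05) and 0 and 0 on all 3 days, limma-voom 0 and DESeq2 919 and 1248. Leaving out 1 day gave 235 to 3455 and 314 to 3438, and 223 to 1578 and 279 to 1310 for genes apart on all days left. A difference of 1.5-fold on each day gave 1166 and 1279 genes, one of 4-fold 201 and 260. Slope counts were 54 and 243 with DESeq2, 223 and 485 without the block and 83 and 300 with day 1. The slope of Spry4 was 0.36 with day 1. Padi3, not called, was at 1.06 without day 2 and at -1.02 without day 4. On day 1, no filter gave 712 and 1430. In the second set glmTreat gave 279 and 1014 against LIM, and 883 and 1216 against 35 h, leaving out 1 library gave 735 to 1097 and 1358 to 2079, and 1440 to 1737 and 1879 to 2522, and a block by line gave 2163 and 2928, and 3004 and 3175. The cause of these shifts was not tested. With 1 library a medium and day, differences between replicate cultures could not be estimated, and low genes carry few counts.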
